A study of Homo sapiens with 6 samples.

Results

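The 7 genes described here encode 4 FXYD proteins (FXYD2, FXYD3, FXYD5 and FXYD6) and 3 beta subunits of the sodium pump (ATP1B1, ATP1B2 and ATP1B3). They were chosen by gene symbol from the 58735 named genes of the deposited count table, by a rule that used no counts. Earlier results of these data were known at that time. Poly(A) RNA was sequenced from LS174T, a cell line from a human colorectal adenocarcinoma, which the labels call goblet-like. The study compared 3 wild-type libraries with 3 libraries labelled as FXYD3 knockout, and the labels name no treatment, time point or clone for either group. The labels leave unstated whether libraries of 1 group are separate cultures, so every p-value reflects the spread among these libraries alone, and that spread may be technical.

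The sodium pump, Na,K-ATPase, exports sodium and imports potassium at the cost of ATP. It pairs a catalytic alpha subunit with a glycosylated beta subunit, which is needed for folding and delivery of the pump to the plasma membrane. FXYD proteins are small single-span membrane proteins that bind the assembled pump and tune its affinity for ions or its rate. In gut epithelium the basolateral pump maintains the sodium gradient that drives nutrient uptake and fluid transport.

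Libraries held 15417232 to 19453217 counts in named genes, and 15351 genes were tested. Levels are given in CPM, a depth-corrected count, for which counts were divided by library sizes corrected with TMM factors, and a positive log2 fold change means a higher level in the knockout-labelled libraries. All 7 intestinal epithelial markers were at 1 CPM or more in every library, as were 8 of 10 goblet markers. The summed goblet level was 939.4 to 1081.7 CPM in wild-type and 546.16 to 591.78 CPM in knockout-labelled libraries. Most of that difference lay in AGR2 (680.05 ± 81.0 and 461.42 ± 31.1 CPM) and MUC5AC (209.4 ± 16.3 and 21.3 ± 5.25 CPM). Both were called lower, and so were SPINK4, MUC2, SPDEF, TFF3 and FCGBP, which add little to the sum. Their log2 fold changes were -2.23, -0.99, -0.84, -0.62 and -0.37. Among the tested goblet markers only ATOH1 was not called (edgeR adjusted p = 0.43), and CLCA1 and ZG16 were not tested. Of 6 fibroblast markers, 0 reached 1 CPM in all libraries, with sums of 0.337 to 0.869 and 5.48 to 7.11 CPM and COL1A2 and PDGFRA at 0. Nearly all of the higher sum was COL3A1, a fibrillar collagen, at 0.313 ± 0.0901 CPM in wild-type and 5.63 ± 0.453 CPM in knockout-labelled libraries (log2 fold change 4.14, edgeR adjusted p = 3.65e-11). Of 5 immune markers 1 did, LYZ, with sums of 31.4 to 34.1 and 32.4 to 33.4 CPM and PTPRC and CD3E at 0. PECAM1, an endothelial marker, was also at 0. The part of these marker levels in the results below was not tested. In bulk RNA, fewer cells of a type and less RNA per cell cannot be told apart.

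Counts of both families came from few members. Per kilobase of exon, ATP1B1 stood at 417.59 ± 3.70 CPM in wild-type libraries (SD, n = 3), ATP1B3 at 113.30 ± 1.22, FXYD5 at 22.6 ± 1.90 and FXYD3 at 1.17 ± 0.322. The same order held in knockout-labelled libraries, at 468.01 ± 9.26, 98.8 ± 3.21, 25.5 ± 2.11 and 1.69 ± 0.280 CPM per kilobase. No neighbours in that order overlapped in any library. FXYD2, FXYD6 and ATP1B2 lay at or near 0 and could not be ranked.

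Of the 4 members that passed the filter on low counts, ATP1B1 was called higher and ATP1B3 lower in knockout-labelled libraries. The background was 12.0% of all tested genes called higher and 12.4% called lower at an adjusted p below 0.05. The groups did not overlap for ATP1B1 and ATP1B3, and 37.2% of all tested genes had groups that did not overlap. With 4 tested members, these counts show nothing particular to the family.

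**Figure D1:**
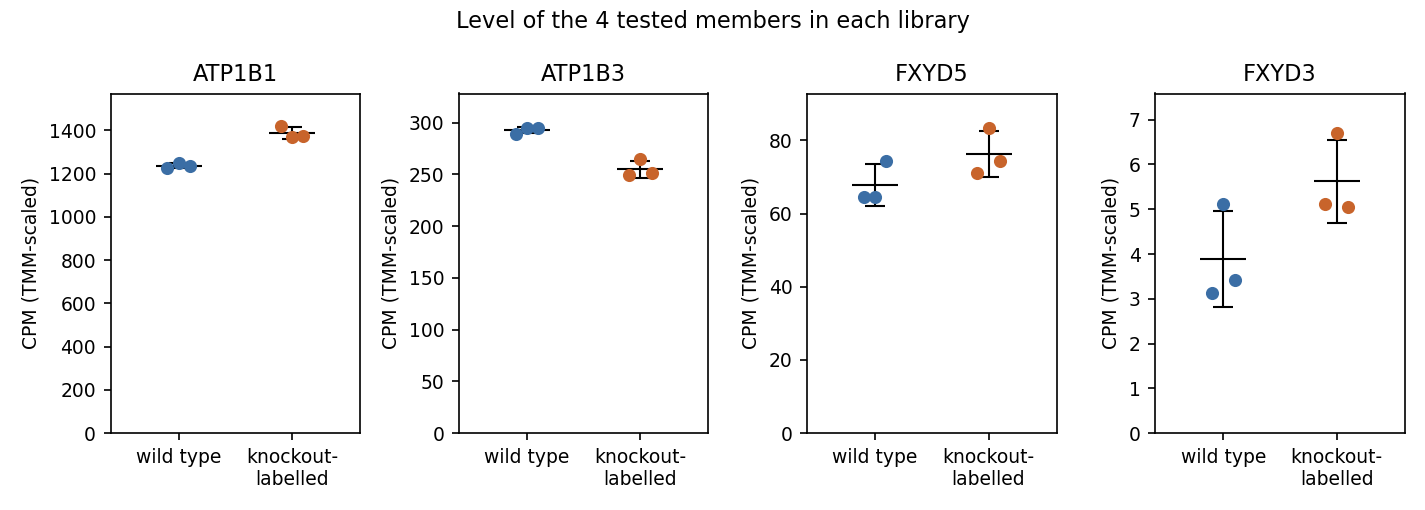
CPM of ATP1B1, ATP1B3, FXYD5 and FXYD3 in each library (points), with the mean and SD of the 3 libraries per group (bars); each panel has its own linear axis from 0. ATP1B1 and ATP1B3 have groups that do not overlap, in opposite directions, and FXYD5 and FXYD3 have groups that overlap.

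ATP1B1 encodes the widespread beta-1 subunit, whose outer domain also takes part in adhesion between epithelial cells. The gene lies on the plus strand of GRCh38 chromosome 1, from 169105697 to 169132722 (ENSG00000143153). It had 1227.3, 1248.8 and 1234.6 CPM in wild-type and 1417.8, 1368.2 and 1372.8 CPM in knockout-labelled libraries. Every knockout-labelled library lay above every wild-type library. On the log2 scale the fold change was 0.16 (SE 0.06, 95% interval 0.05 to 0.28), a rise of 12.1%, with an adjusted p of 0.0373 by edgeR's quasi-likelihood test. This change exceeded that of 49.8% of tested genes, so its size was close to the median. The call was lost in edgeR with the replicate number as a block (adjusted p = 0.133). It was also lost without any single library other than wild-type replicate 2, at edgeR adjusted p-values of up to 0.171.

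ATP1B3 encodes the beta-3 subunit, known on leukocytes and many other cells as CD298. It lies on the plus strand of chromosome 3, from 141876124 to 141926514 (ENSG00000069849). It had 289.12, 294.55 and 294.66 CPM in wild-type and 249.57, 264.72 and 251.24 CPM in knockout-labelled libraries. All 3 knockout-labelled values lay below all wild-type values. It changed by -0.20 on the log2 scale (SE 0.05, 95% interval -0.31 to -0.09), a change of -12.8%, with an edgeR adjusted p of 0.00797. It was called lower in all 15 alternative settings run.

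ATP1B2, the beta-2 subunit first described as an adhesion molecule of glia, had 0 counts in all 6 libraries. It lies on the plus strand of chromosome 17, from 7646627 to 7657768 (ENSG00000129244). A count of 0 over a group allows up to 0.0580 CPM in wild type and 0.0583 CPM in knockout-labelled libraries, taking 3 counts of the group's total and counting error only. Pseudogene copies of the other beta genes drew few reads, with 6 counts for ATP1B1P1 and 2 for ATP1B3P1 over all libraries.

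The make-up of the beta subunit reads was compared within each library. Per kilobase, ATP1B3 made up 21.3%, 21.3% and 21.5% of beta subunit reads in wild-type libraries. The share was 16.8%, 18.2% and 17.3% in knockout-labelled libraries. The difference of the means was -3.91 percentage points, and the groups did not overlap. An exact two-sided permutation test gave p = 0.1, the smallest that 3 against 3 libraries allows (0.2 after Benjamini-Hochberg adjustment over 2 shares). The ratio of ATP1B1 to ATP1B3 per kilobase was 3.69 ± 0.0265 in wild-type and 4.74 ± 0.224 in knockout-labelled libraries (SD, n = 3). Such a ratio does not depend on how libraries are scaled.

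**Figure D2:**
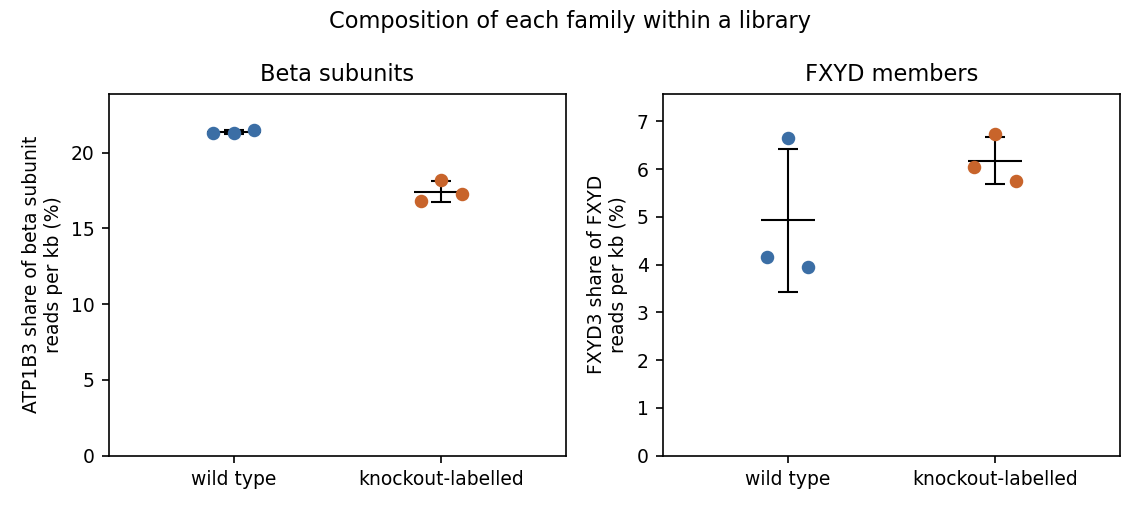
Share (%) of ATP1B3 in the beta subunit reads per kilobase (left) and of FXYD3 in the reads per kilobase of the 4 FXYD members (right), by library (points) with mean and SD of 3 libraries. The ATP1B3 share is 21.3 to 21.5% in wild type and 16.8 to 18.2% in knockout-labelled libraries, and the FXYD3 shares overlap.

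FXYD5, or dysadherin, is an FXYD protein with a long outer domain that lowers cell adhesion when overproduced. It lies on the plus strand of chromosome 19, from 35154730 to 35169883 (ENSG00000089327). It had 64.4, 64.4 and 74.3 CPM in wild-type and 71.2, 83.3 and 74.4 CPM in knockout-labelled libraries. Wild-type replicate 3 lay above knockout-labelled replicate 1, so the groups overlapped. The fitted log2 difference of 0.18 (SE 0.07, 95% interval 0.02 to 0.33) did not pass the threshold (edgeR adjusted p = 0.0897). It passed only without wild-type replicate 3, at a log2 fold change of 0.24 and an edgeR adjusted p of 0.0172.

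FXYD3, also called Mat-8, is the targeted gene and is known in stomach, colon and several carcinomas. It lies on the plus strand of chromosome 19, from 35115879 to 35124324 (ENSG00000089356). It had 54, 91 and 55 counts in wild-type and 79, 131 and 85 counts in knockout-labelled libraries. In CPM these were 3.12, 5.11 and 3.42 against 5.11, 6.70 and 5.06, so the groups overlapped. Counts were thus not lower in the libraries labelled as knockout. Its log2 difference, 0.54 (SE 0.20, 95% interval 0.12 to 0.95), did not pass the threshold (edgeR adjusted p = 0.0522). It passed in edgeR with upper-quartile scaling (adjusted p = 0.0442), without a filter (0.0479), with the replicate block (0.0472) and without wild-type replicate 2 (0.00313). FXYD3 made up 4.17%, 6.65% and 3.96% of FXYD reads per kilobase in wild-type and 6.05%, 6.73% and 5.76% in knockout-labelled libraries. That difference of 1.25 percentage points had an exact permutation p of 0.3, and 0.3 after adjustment.

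The counts of FXYD3 may have come from only part of its transcripts. Of its 3334 exonic bases in GENCODE release 29, 1357 (40.7%) were also exon of another gene. These were 1292 bases shared with AC020907.6, a gene on the same strand spanning 35106510 to 35124297, and 65 bases shared with the microRNA gene MIR6887. All exonic bases of both genes are shared, and both had 0 counts in all 6 libraries. Of the 684 coding bases of FXYD3, 418 (61.1%) were shared. FXYD3-202 shared 1292 of its 1320 bases (97.9%), FXYD3-201 92.0% and FXYD3-213 18.0%, with a median of 75.7% over 13 coding transcripts.

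Across the table, genes whose exonic bases were all shared received almost no counts. Of 1894 such genes, 1834 (96.8%) had 0 counts in all libraries, against 54.1% of 41758 genes with no shared base, and the highest total was 28. Where all sharing was with the opposite strand, 709 of 710 genes (99.9%) were at 0. With sharing on any strand, and a gene sharing those bases that had at least 10000 counts itself, 326 of 338 genes (96.4%) were at 0. Among those 338, 98 shared with the opposite strand only. Where all sharing was with the same strand, as in FXYD3, 962 of 1008 genes (95.4%) were at 0. Genes fully shared on the same strand were thus hardly represented in the deposited counts. That set was not limited to genes sharing with a well-counted gene, whose reads may also lie outside the shared bases. Whether reads in shared bases were left uncounted was therefore not tested. For the opposite strand the zeros cannot decide it either, because the strand setting of the counting is not given. If such reads were uncounted, the FXYD3 counts describe mainly its 1977 unshared bases. Which bases the knockout altered is not given in the sources used here. These counts therefore do not check the labels and cannot be taken as a measure of the whole mRNA. Per kilobase of unshared exon, FXYD3 stood at 1.96 CPM in wild-type and 2.84 CPM in knockout-labelled libraries. Its mean share of FXYD reads per kilobase of unshared exon was 8.03% and 9.99%, a difference of 1.97 percentage points (exact permutation p = 0.3). Neither value corrects for the sharing, because the 1977 bases are spread unevenly over the transcripts of FXYD3. They lie in 11 stretches, the longest of 602 bases. A transcript with a retained intron holds 472 unshared bases, and the coding transcripts hold 22 to 686 each.

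**Figure D3:**
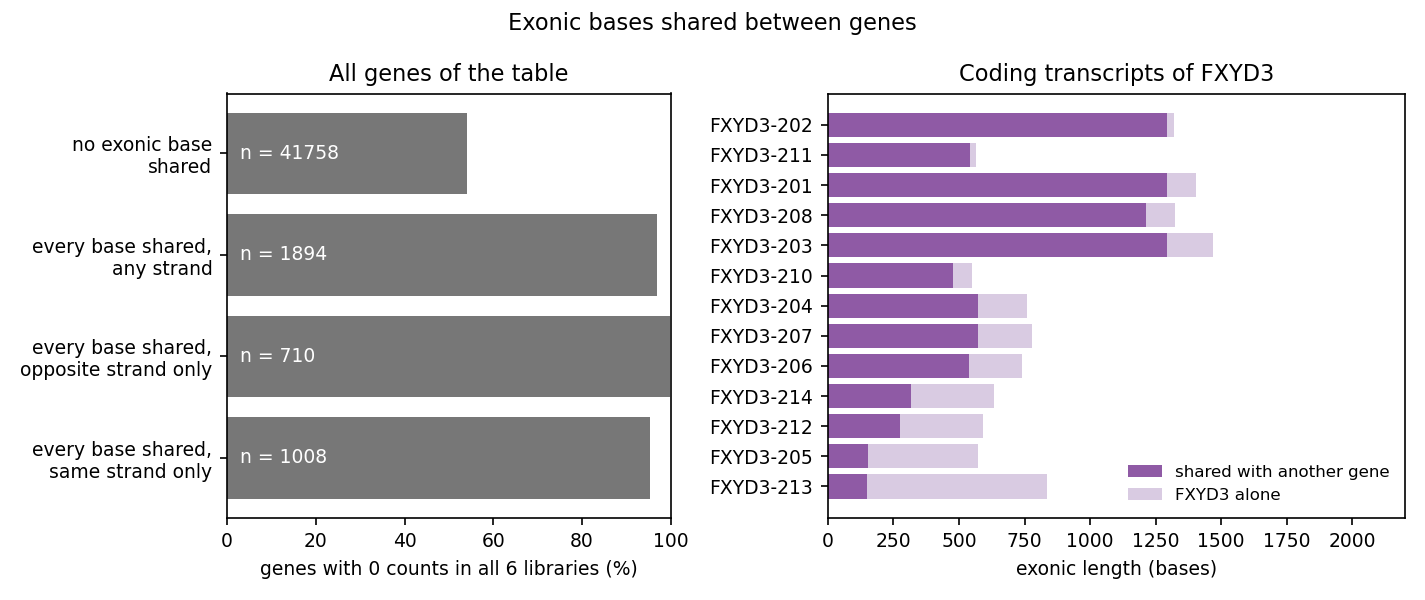
Left, percent of genes with 0 counts in all 6 libraries, by how their exonic bases are shared with other genes (n genes per bar). Right, exonic length in bases of each coding transcript of FXYD3, split into bases shared with another gene (dark) and unshared (light); FXYD3-202 has 28 unshared bases.

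The remaining members differed in how much of their exons was shared. FXYD5, ATP1B2 and ATP1B3 shared no exonic base. ATP1B1 shared 192 of 2962 bases (6.48%) with NME7 and none of its coding bases. NME7 itself stood at 11.7 ± 0.176 and 12.0 ± 2.37 CPM in the wild-type and knockout-labelled libraries and was not called (log2 fold change 0.04, edgeR adjusted p = 0.865). The zeros of ATP1B2 were thus not limited by sharing.

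FXYD2, the gamma subunit of the kidney pump, had 2 counts, both in knockout-labelled replicate 1. It lies on the minus strand of chromosome 11, from 117800844 to 117828698 (ENSG00000137731). FXYD6, known from brain and called phosphohippolin, had 0 counts in all libraries and lies next to it, from 117836976 to 117877486 (ENSG00000137726). The readthrough gene FXYD6-FXYD2 shares exons with both and had 0 counts. Of the coding bases, 173 of 217 (79.7%) in FXYD2 and 309 of 372 (83.1%) in FXYD6 were shared. If reads in shared bases were uncounted, any counts of these genes would rest mainly on noncoding exon. Most of that exon was unshared, since 14.2% of all FXYD2 and 19.8% of all FXYD6 exonic bases were shared. The sharing covered 392 bases on the same and 433 on the opposite strand in FXYD2, and 390 and 625 in FXYD6. The 4 coding transcripts of FXYD2 held only 121 to 380 unshared bases each, against 2596 in FXYD2-204, which is not coding. Those of FXYD6 held 189 to 1156. Counts near 0 thus say little about coding mRNA of FXYD2.

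Genes beside the members were measured as well. LGI4, which ends 188 bases past FXYD3 on the opposite strand, had 2, 7 and 2 counts in wild-type and 7, 11 and 7 in knockout-labelled libraries. These were 3.64 to 8.86% of the FXYD3 counts of a library. FXYD1 and FXYD7, in the same chromosome 19 cluster, had 5 and 6 counts in all. TFDP2, 17913 bases past ATP1B3, encodes a partner of E2F transcription factors. It stood at 98.0 ± 0.162 and 87.5 ± 1.08 CPM in wild-type and knockout-labelled libraries and was called lower (log2 fold change -0.16, SE 0.06, edgeR adjusted p = 0.0465). The antisense gene ATP1B3-AS1, with no exonic base shared with ATP1B3, stood at 1.19 ± 0.165 and 0.988 ± 0.333 CPM and was not called.

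Promoter sequence was set beside these levels because the beta genes range from the most abundant member to one with 0 counts. RefSeq windows on GRCh38.p14 were found for 6 of the 7 members. In the stretches printed, 5′ to 3′ on the plus strand, capitals mark GC boxes (GGGCGG or CCGCCC) and CCAAT boxes (CCAAT or ATTGG). They cover chr3:141876395-141876613 for ATP1B3, chr17:7646377-7646626 for ATP1B2, chr19:35154485-35154729 for FXYD5 and chr19:35117750-35117999 for FXYD3.
ATP1B3: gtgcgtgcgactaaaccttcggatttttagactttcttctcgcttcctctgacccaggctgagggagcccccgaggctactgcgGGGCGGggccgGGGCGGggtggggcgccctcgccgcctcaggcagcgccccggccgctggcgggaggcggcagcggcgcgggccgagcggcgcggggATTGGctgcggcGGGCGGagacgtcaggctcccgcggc
ATP1B2: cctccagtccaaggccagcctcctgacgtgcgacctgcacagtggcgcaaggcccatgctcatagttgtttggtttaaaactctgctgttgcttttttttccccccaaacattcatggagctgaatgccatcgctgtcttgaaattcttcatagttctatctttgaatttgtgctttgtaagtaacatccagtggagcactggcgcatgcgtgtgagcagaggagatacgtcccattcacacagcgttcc
FXYD5: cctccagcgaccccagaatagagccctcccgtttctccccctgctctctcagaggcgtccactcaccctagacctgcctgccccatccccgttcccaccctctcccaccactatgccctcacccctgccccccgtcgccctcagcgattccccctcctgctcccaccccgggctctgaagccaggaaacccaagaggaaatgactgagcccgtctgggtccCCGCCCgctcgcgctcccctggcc
FXYD3: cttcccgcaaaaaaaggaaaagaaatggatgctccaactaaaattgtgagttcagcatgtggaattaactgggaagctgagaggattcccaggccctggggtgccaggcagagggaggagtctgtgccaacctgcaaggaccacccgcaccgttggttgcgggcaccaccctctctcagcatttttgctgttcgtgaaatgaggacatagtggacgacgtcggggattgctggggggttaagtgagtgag

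In the whole 250-base windows before the start, ATP1B3 held 39 CpG and ATP1B1 35, more than 97.3% and 94.2% of 35116 RefSeq windows. FXYD5 held 13 CpG, near the median of 11, and ATP1B2 and FXYD3 held 8 each. Of the 2 windows of FXYD6, one held 23 CpG and the other 4, although the gene had 0 counts. The 2 most abundant members thus had the most CpG, but CpG did not order the others. Searched on both strands, ATP1B3 had 4 GC boxes and 1 CCAAT box, ATP1B1 2 and 1, FXYD5 1 and 0, and ATP1B2 and FXYD3 neither. The FXYD6 windows held 2 GC boxes and 1 CCAAT box between them. GC boxes occur in 42.6% of all windows and CCAAT boxes in 32.0%. TATAAA or TTTATA, found in 10.7% of windows, was in none of the members' windows. The RefSeq start of FXYD3 lies 2121 bases inside the gene's start in the table, so that window serves 1 of several starts. The RefSeq starts of ATP1B1 and ATP1B3 also lie inside, by 993 and 519 bases, and those of FXYD6 by 828 and 56. Their CpG counts therefore also depend on the start taken.

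Other genes of sodium and potassium transport were taken from lists by function. Among FXYD1, FXYD4, FXYD7, ATP1B4 and ATP4B, 0 were tested, and FXYD4 had 11 counts in all. Of 17 pump binding proteins and regulators 12 were tested, with 1 called higher, 2 lower and a median log2 fold change of -0.05. Over all tested genes 12.0% were called higher and 12.4% lower, with a median of 0.00. No list was tested as a set. ANK3, an ankyrin that ties membrane proteins to the spectrin skeleton, rose from 31.8 ± 2.81 to 41.1 ± 5.67 CPM (log2 fold change 0.36, SE 0.09, edgeR adjusted p = 0.00585). Without knockout-labelled replicate 3, 0 genes of the list were called higher. WFS1, an endoplasmic reticulum protein reported to bind the beta-1 subunit, fell from 74.0 ± 4.57 to 55.4 ± 2.70 CPM (-0.42, SE 0.07, edgeR adjusted p = 5.37e-05). ANK2, another ankyrin, had 70 counts in wild-type and 2 in knockout-labelled libraries. The ratio of wild type to knockout-labelled was 34.8, with a 95% counting interval of 9.29 to 293.34 (edgeR adjusted p = 1.96e-06).

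Of 26 genes for sodium entry 21 were tested, with 4 called higher, 6 lower and a median log2 fold change of -0.01. The shares over all tested genes were 12.0% higher and 12.4% lower. SCNN1A, the alpha subunit of the epithelial sodium channel, fell from 133.01 ± 4.56 to 82.1 ± 4.68 CPM (-0.70, SE 0.06, edgeR adjusted p = 1.02e-09). SLC6A14, a sodium-driven amino acid transporter, fell from 5.26 ± 0.388 to 0.253 ± 0.234 CPM (-4.26, SE 0.38, edgeR adjusted p = 3.55e-09). SLC6A14, and SCNN1A as part of its channel, are known to carry sodium inward across the apical membrane. The genes of the beta and gamma subunits of that channel, SCNN1B and SCNN1G, had 1 and 0 counts over all libraries. Of the tested genes in this list 11 were not called, and sodium entry itself was not measured. Other genes listed for sodium entry went the other way. SLC1A1, a glutamate transporter, rose from 48.1 ± 0.670 to 75.9 ± 3.58 CPM (0.66, SE 0.07, edgeR adjusted p = 2.63e-08). SLC6A8, the creatine transporter, rose from 43.1 ± 2.18 to 77.0 ± 6.21 CPM (0.84, SE 0.08, edgeR adjusted p = 1.27e-09). Near-identical copies of SLC6A8 exist in the genome, so its level is uncertain.

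Of 10 genes for potassium exit 7 were tested, with 1 called in each direction and a median log2 fold change of -0.04. The shares over all tested genes were again 12.0% higher and 12.4% lower. KCNQ1, a channel of basolateral and apical membranes in gut epithelium, fell from 179.79 ± 10.5 to 128.71 ± 4.21 CPM (-0.48, SE 0.06, edgeR adjusted p = 3.2e-07). KCNK1, a background potassium channel, rose from 119.52 ± 3.15 to 184.67 ± 0.484 CPM (0.63, SE 0.05, edgeR adjusted p = 8.21e-10).

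**Figure D4:**
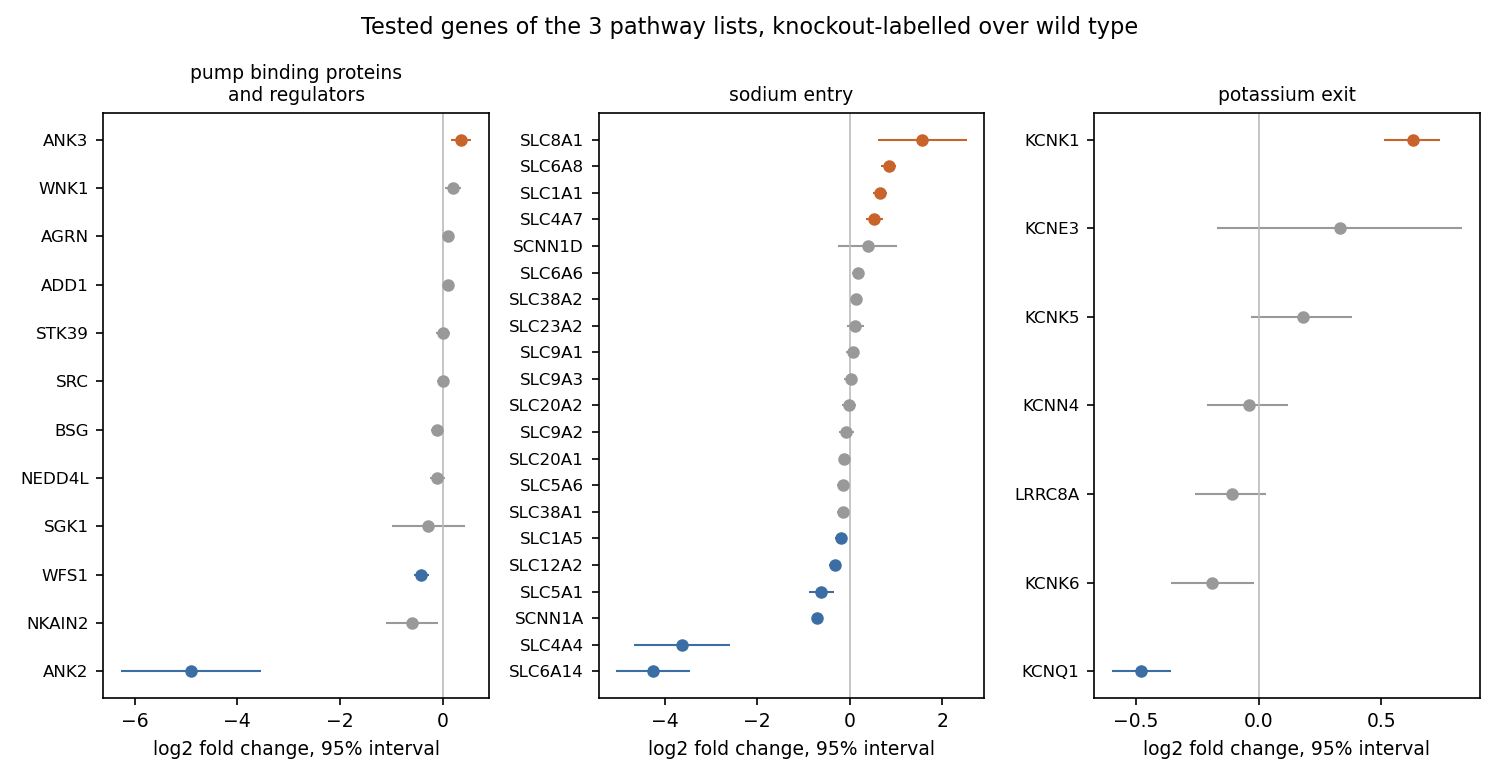
Log2 fold change of every tested gene in the 3 lists, knockout-labelled over wild type, with its 95% interval; orange points were called higher, blue lower and grey not called (edgeR adjusted p below 0.05), and the panels have different axes. Each list has genes called in both directions, and its median lies within 0.05 of 0.

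The genes whose profile over the 6 libraries was most like a member's were found by the root mean square difference of centred log2 CPM, among protein-coding genes of at least 5 CPM. For ATP1B1 these were RPL7L1 (0.014), SOX4 (0.016) and SLTM (0.018), where the median gene differed by 0.138. For ATP1B3 they were SGSM2 (0.019), SCARB1 (0.019) and PHKG2 (0.020), with a median of 0.14. FXYD5 was nearest to SAT2 (0.032), ARHGAP45 (0.036) and LTBR (0.037), with a median of 0.172. FXYD3, whose counts are few, had no close match, with TRIM31 nearest at 0.109 and a median of 0.358. These are distances over 6 libraries that also share their depth and group, and they are given as a description.

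**Figure D5:**
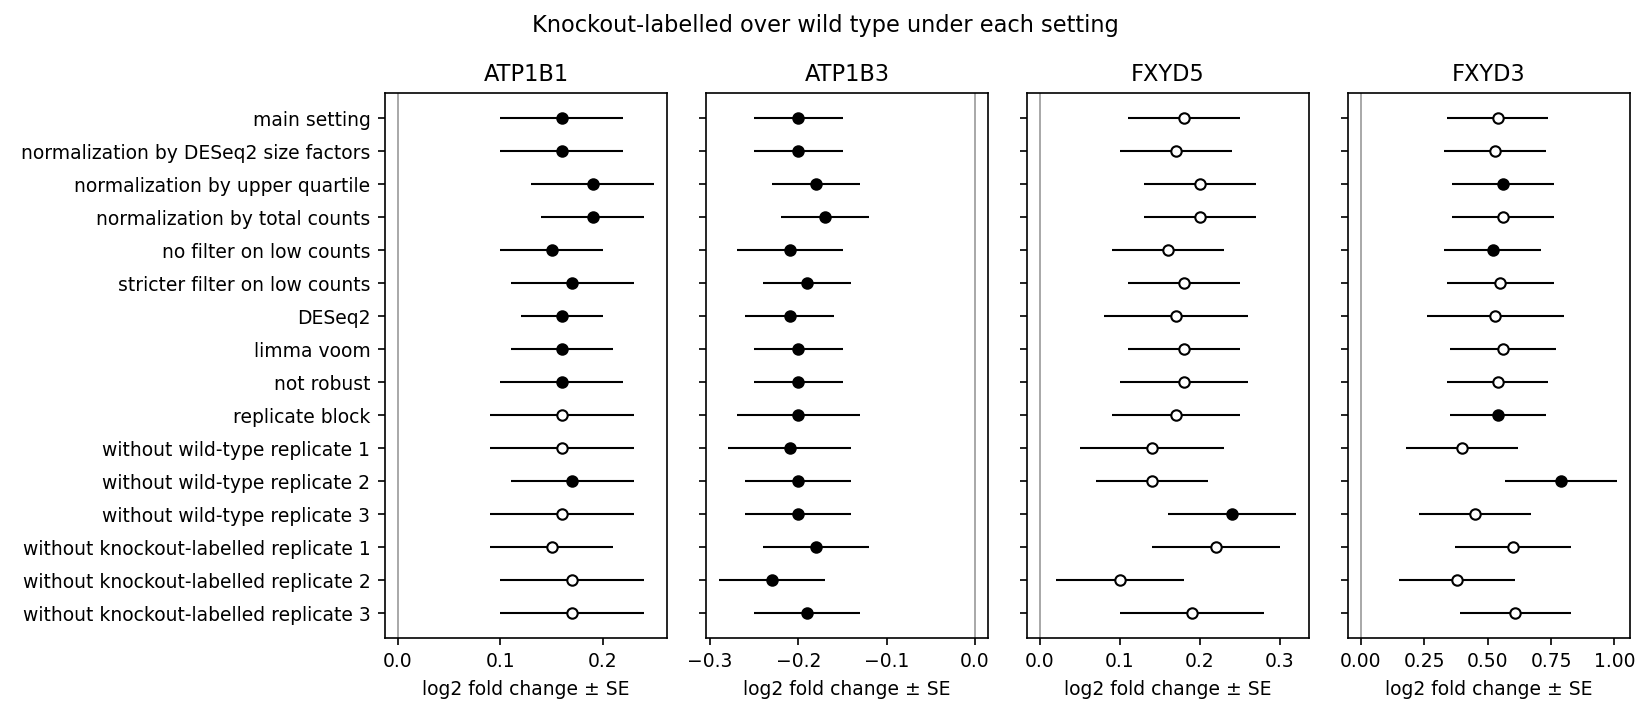
Log2 fold change ± SE of the 4 tested members under each setting; filled points have an adjusted p below 0.05 and open points do not, and axes differ between panels. ATP1B3 is filled in every setting, whereas ATP1B1, FXYD5 and FXYD3 are filled in some and open in others, with no change of sign.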

How the data were processed

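The authors deposited whole-number counts of reads per gene, with no normalization, for 6 libraries. Per the labels' protocols, cells were lysed in TRIzol and a NEBNext Ultra kit was used for the libraries. HISAT2 2.0.5 and featureCounts 1.5.0-p3 are named in the submitters' processing notes, which also give the build mm10, whereas the identifiers are human. The strand setting is not given in the sources used here. Gene lengths in the table equal GENCODE release 29 exon lengths, on GRCh38. Of 58967 rows, 232 had no gene name (0.13 to 0.25% of counts) and were left out.

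Tests used edgeR 4.0.16 in R 4.3.3 (quasi-likelihood, robust, two-sided, TMM scaling, filterByExpr with a minimum count of 10, no covariate), with Benjamini-Hochberg adjustment over 15351 genes and a threshold of 0.05. Shares were tested over libraries by exact permutation. Alternatives were other scalings and filters, DESeq2 1.42.0, limma 3.58.1 (voom), fits without robust estimation, the replicate block and each library left out. Levels per unshared exon length were added after seeing the data. Testing steps were tested on simulated data. Python 3.11.15 made tables and plots. Intervals and floors cover counting error only.

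The members and gene lists were chosen with earlier results of these data known. From each list up to 4 called genes with the smallest p were named, with the genes beside each member and the 3 most alike profiles per tested member; NME7, LGI4 and FXYD1 are such neighbours. Markers were taken from lists by cell type, and SCNN1B and SCNN1G were named as partners of SCNN1A. Some genes are not reported here.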

Additional observations from a re-analysis of the deposited data

How the results depend on the processing

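ATP1B3 was lower, and past the threshold, in all alternatives run (log2 fold change -0.23 to -0.18 with single libraries left out). The signs of ATP1B1, FXYD5 and FXYD3 held in all of them, with leave-one-out ranges of 0.15 to 0.17, 0.10 to 0.24 and 0.38 to 0.79. FXYD3 passed with upper-quartile scaling (0.56), no filter (0.52) and the replicate block (0.54), and ATP1B1 failed with the replicate block (0.16). The members called higher were 2 with upper-quartile scaling or no filter and 0 to 2 with single libraries left out. With the block the 1 called was FXYD3 and not ATP1B1. Pump binding proteins called higher were 2 with upper-quartile scaling or no filter and 0 to 2 with libraries left out, and those called lower were 1 with the stricter filter, which removes ANK2 from the test, and 2 to 4. Potassium exit genes called lower were 1 to 2 with libraries left out. The cause of these changes was not tested, other than for ANK2.

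Replicate numbers did not pair the libraries, since deviations of same-numbered libraries correlated at 0.0234, -0.0751 and -0.0959, and 2 of 6 libraries correlated best with their own number. The block moved the calls over all genes from 1839 to 1478 higher and from 1896 to 1475 lower. For the beta share, with -4.28 to -3.60 points when single libraries were left out, and for the FXYD share, with 0.767 to 2.11, a sign permutation within 3 pairs cannot go below p = 0.25. Counts of FXYD3 were 200 and 295 per group, and the part of depth in its result was not tested.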
